A study of Mus musculus with 9 samples.

Results

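The upstream stimulatory factor (USF) family of transcription factors was followed by its transcripts in BV2 cells under hypoxia, with and without ethanolamine. Its members were the 3 mouse genes Usf1, Usf2 and Usf3, found by symbol among the 55335 gene identifiers of the deposited expression table, and the family was chosen on the measured levels of Usf3, which were higher in hypoxia and lower with ethanolamine in these same libraries. That choice means that the Usf3 changes below are a description and carry no test, whereas Usf1 and Usf2 were tested with all other genes.

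USF proteins are basic helix-loop-helix leucine zipper (bHLH-LZ) factors that bind DNA as dimers at the palindromic E-box CACGTG. USF1 and USF2 are expressed in most tissues, pair with each other or with themselves, and are best known for driving genes of lipid and glucose metabolism, stress responses and the cell cycle. USF3 is a much larger and less studied protein of the same name family. Factors of the MYC, MITF and circadian clock families bind the same E-box, and hypoxia-inducible factors bind a related core that contains ACGTG or GCGTG.

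BV2 is an immortalised mouse microglial line, made by a retrovirus carrying the v-raf and v-myc oncogenes, so the results describe 1 cell line and not microglia in tissue. Genotype was labelled WT in all groups. RNA was sequenced in 9 libraries, 3 in each of 3 groups: control cells (labelled 0 h), cells held at 1% oxygen for 24 h (hypoxia), and cells held at 1% oxygen for 24 h with ethanolamine, from which cells make phosphatidylethanolamine, at 100 µM (ethanolamine group). No control at 24 h was analysed here, so oxygen and time in culture cannot be told apart, and no library of ethanolamine without hypoxia was analysed here. Whether the 3 libraries of a group were separate cultures is not stated, and p-values then cover the spread between libraries alone, which may be technical.

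Values are FPKM, fragments scaled by transcript length and library total. Absolute depth is unknown; relative depth differed 1.32-fold between libraries, and 11556 to 11924 genes reached 1 FPKM. Changes are differences in log2(FPKM + 0.5), a scale on which the changes of low genes are understated. A gene was called when its adjusted p was under 0.05 (limma-trend, Benjamini-Hochberg over the 11802 genes that averaged 1 FPKM or more). All 3 members passed that filter, Usf3 through its hypoxia libraries. All 8 hypoxia-inducible factor targets examined were called higher in hypoxia, among them the mitophagy receptor Bnip3, which went from 7.54 ± 0.867 to 298 ± 7.15 FPKM (SD, n = 3). Microglial markers were present (their summed level was 928 to 1292 FPKM in all libraries). Much of that sum was Cd68, with means of 681, 671 and 682 FPKM in control, hypoxia and ethanolamine. Aif1 was low, with means of 0.0715, 0.159 and 0.0782 FPKM, and Cx3cr1 had means of 0.195, 2.47 and 2.73 FPKM in the same groups. The summed neuron and astrocyte markers did not exceed 0.151 and 0.181 FPKM, and the summed oligodendrocyte and fibroblast markers reached 0.996 and 1.14 FPKM. A treatment tag on the controls speaks of adipocyte differentiation, against their title; of 6 adipocyte markers, Adipoq, Plin1, Lep and Cfd were at 0 in every group and Retn reached 0.127 FPKM in 1 control library, while Fabp4 had means of 18.6, 25.8 and 20.1 FPKM in control, hypoxia and ethanolamine. Ethanolamine library 1 stood apart: on the second principal component it lay at 3.72, with the hypoxia libraries at 5.65 to 15.4 and the other two ethanolamine libraries at -17.8 and -21.1. In bulk RNA, a lower level per cell and fewer cells expressing the gene cannot be told apart.

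Usf3 (ENSMUSG00000068284) spans chr16:44173246-44227465 on the plus strand of GRCm38. Its level was 1.84, 0.854 and 0.721 FPKM in the 3 control libraries. In hypoxia it was 4.81, 5.45 and 5.00 FPKM. In the ethanolamine group it was 0.249, 0.774 and 0.211 FPKM. The hypoxia libraries lay above all 6 others with a wide gap, while ethanolamine library 2 lay just above the lowest control, so control and ethanolamine overlapped.

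Group means of Usf3 were 1.14 ± 0.611 FPKM in control, 5.09 ± 0.329 FPKM in hypoxia and 0.411 ± 0.315 FPKM with ethanolamine (SD, n = 3). The hypoxia mean was 4.47 times the control mean and 12.4 times the ethanolamine mean. On the log2 scale Usf3 differed by 1.83 ± 0.28 (SE) between hypoxia and control and by -2.67 ± 0.28 between ethanolamine and hypoxia; both differences contain the same hypoxia libraries. Among the 11802 tested genes the first of these ranked 261st from the highest and the second ranked 4th from the lowest. Groups did not overlap in 65.0% of tested genes between hypoxia and control and in 21.6% between hypoxia and ethanolamine. An absolute log2 difference of at least 1 was seen in 15.9% of tested genes for hypoxia against control, in 0.695% for ethanolamine against hypoxia and in 14.3% for ethanolamine against control. Including Usf3, 22 genes differed by at least 1 upward and then at least 1 downward; the others with a familiar protein product were the chemokine Cxcl2, the cytokine Il1b and the protease Mmp10, and the rest were the nuclear long non-coding RNA Malat1, microRNA loci, predicted genes and identifiers without a symbol.

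Between ethanolamine and control, Usf3 differed by -0.84 ± 0.28 (SE) on the log2 scale, with overlapping libraries. With a single library left out this value ranged from -1.11 to -0.55, and -0.55 was found without control library 1, the highest control. Without ethanolamine library 1 it was -0.72, and the difference from hypoxia was -2.55. The difference of hypoxia from control ranged from 1.65 to 2.12 with a library left out.

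**Figure D1:**
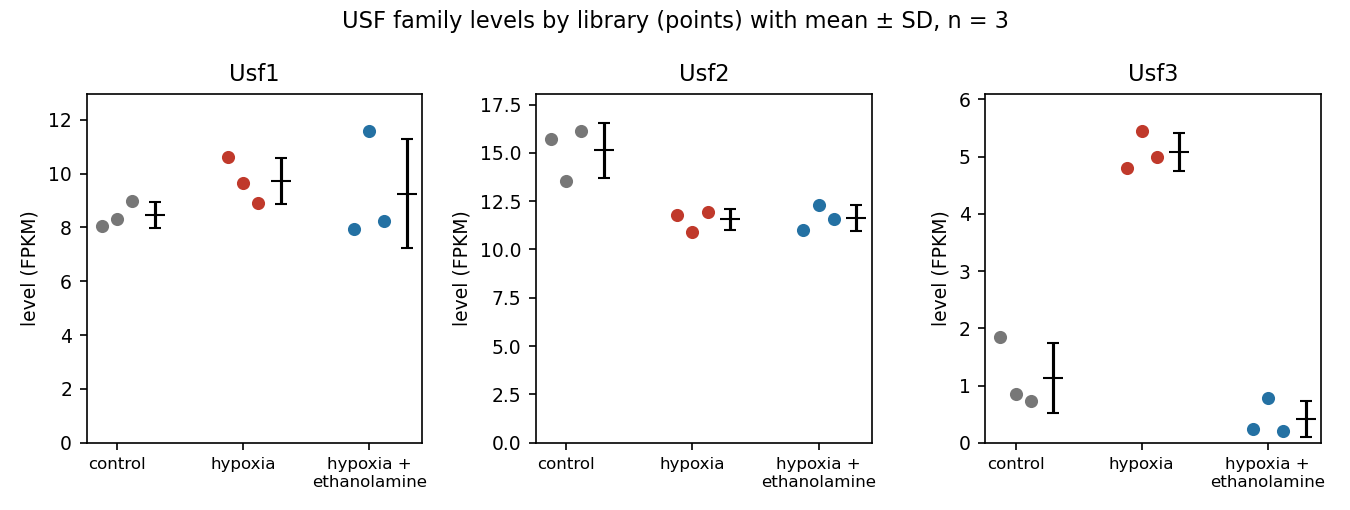
Levels of Usf1, Usf2 and Usf3 in FPKM (vertical axes, each from 0) in control, hypoxia and hypoxia with ethanolamine; points are the 3 libraries of a group and black marks the mean ± SD. The 3 hypoxia libraries of Usf3 lie at 4.81 to 5.45 FPKM with all others at or under 1.84 FPKM, the controls of Usf2 lie above all other libraries, and the Usf1 groups overlap.

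Usf1 (ENSMUSG00000026641; chr1:171411313-171419142, plus strand, GRCm38) encodes the founding member of the family. Its level was 8.07, 8.32 and 8.999 FPKM in control, and 10.6, 9.66 and 8.91 FPKM in hypoxia. With ethanolamine it was 7.94, 11.6 and 8.25 FPKM. The groups overlapped in all 3 comparisons, and ethanolamine library 2 held both the highest Usf1 level of all 9 libraries and the highest Usf2 and Usf3 levels of its group.

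Usf1 means were 8.46 ± 0.481, 9.73 ± 0.865 and 9.26 ± 2.02 FPKM in control, hypoxia and ethanolamine (SD, n = 3). No change was called: the log2 difference was 0.19 for hypoxia against control (95% interval -0.14 to 0.52, adjusted p = 0.254, limma). For ethanolamine against hypoxia it was -0.08 (95% interval -0.41 to 0.24, adjusted p = 0.810), and for ethanolamine against control it was 0.10 (95% interval -0.22 to 0.43, adjusted p = 0.531). Those intervals leave room for changes of either sign. Leaving out ethanolamine library 1 turned the difference from hypoxia to 0.01, and leaving out ethanolamine library 2 turned the difference from control to -0.06.

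Usf2 (ENSMUSG00000058239; chr7:30945248-30956803, minus strand, GRCm38), the dimer partner of USF1, fell in hypoxia. Its level was 15.7, 13.5 and 16.1 FPKM in control. In hypoxia it was 11.8, 10.9 and 11.9 FPKM. In the ethanolamine group it was 11.002, 12.3 and 11.6 FPKM. All 3 controls lay above all 6 hypoxic libraries, and the hypoxia and ethanolamine libraries interleaved.

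Mean Usf2 was 15.1 ± 1.41 FPKM in control, 11.6 ± 0.551 FPKM in hypoxia and 11.6 ± 0.656 FPKM with ethanolamine (SD, n = 3). It fell by 0.37 on the log2 scale in hypoxia (SE 0.08, adjusted p = 0.00331, limma), a control mean 1.31 times the hypoxia mean. Against control it was likewise lower with ethanolamine, by a log2 difference of -0.36 (SE 0.08, adjusted p = 0.00400, limma). Both calls stood in all 20 other settings, with differences of -0.45 to -0.28 and -0.44 to -0.27. Calls were common in those comparisons: of all tested genes, 59.4% were called for hypoxia against control (24.7% higher and 34.7% lower). For ethanolamine against control 58.5% were called (24.1% higher and 34.4% lower), and the groups did not overlap in 64.5%. Between ethanolamine and hypoxia the Usf2 difference was 0.01 (95% interval -0.19 to 0.21, adjusted p = 0.970), in a comparison where 0.568% of genes were called (0.119% higher and 0.449% lower) and 0 were called without hypoxia library 3.

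The members' FPKM, which are scaled by length, are set side by side here within a library. The order and shares rest on the transcript lengths behind the deposited values, which are unknown and matter most for Usf3. Usf2 was the most abundant member in all 9 libraries and Usf3 the least. Usf2 exceeded Usf1 by a ratio of 1.62 to 1.95 in control, 1.11 to 1.34 in hypoxia and 1.06 to 1.40 with ethanolamine. The log2 ratio differed by -0.56 between hypoxia and control and by -0.47 between ethanolamine and control without overlap. The two-sided exact permutation p was 0.1 in both, the smallest that 3 against 3 libraries can give. For ethanolamine against hypoxia the log2 ratio differed by 0.09 with overlap (exact permutation p = 0.7). As a description, Usf3 made up 2.79% to 7.18% of the summed FPKM of the 3 genes in control, 17.7% to 20.9% in hypoxia and 1.06% to 3.14% with ethanolamine. Across the 9 libraries the members did not follow each other closely: Pearson's r was -0.21 for Usf1 with Usf2, 0.38 for Usf1 with Usf3 and -0.16 for Usf2 with Usf3, over libraries that share the 3 groups.

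**Figure D2:**
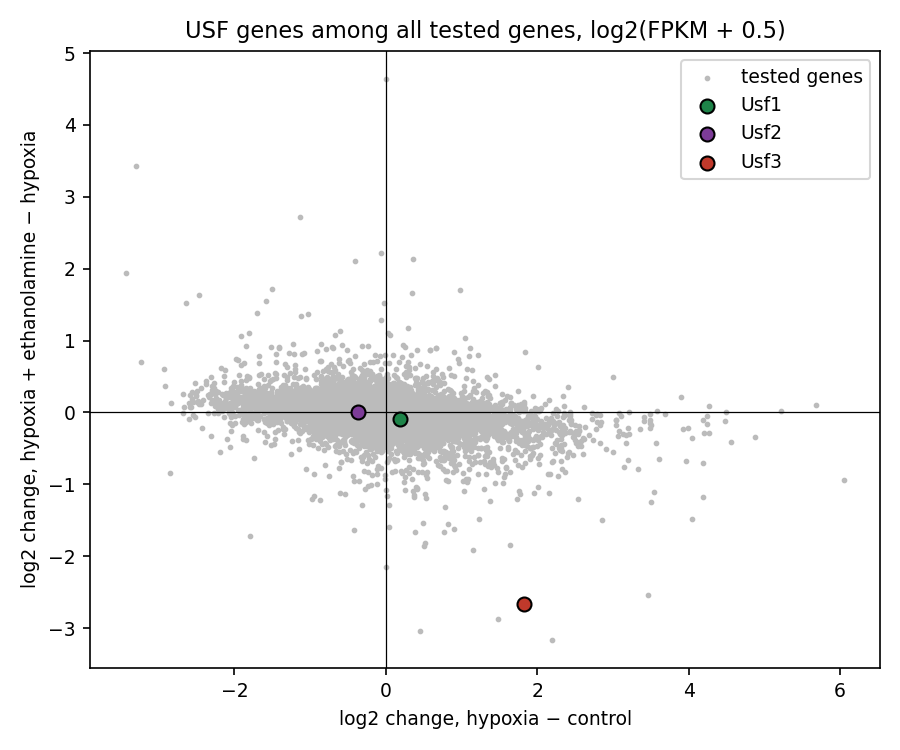
Log2 difference of hypoxia from control (horizontal) against that of ethanolamine from hypoxia (vertical) on the log2(FPKM + 0.5) scale, 1 point per tested gene, with the USF genes in colour. Both axes contain the hypoxia libraries, so the downward slope of the cloud is no result; Usf3 lies at 1.83 and -2.67, below nearly all genes, and Usf1 and Usf2 lie within the cloud near 0 on the vertical axis.

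Several measured facts stand beside the Usf3 values. The annotation gives Usf3 coding transcripts of 757 to 12708 nucleotides, a 16.8-fold span, against 3.01-fold for Usf1 and 3.73-fold for Usf2. FPKM divides by length, and which length or transcript mix entered the deposited value is not given in the sources used here. How deposited values can be divided is seen for the marker Itgam, which has 2 identifiers. Hypoxia library 1 had 20.0 and 42.2 FPKM for them and hypoxia library 2 had 65.2 and 0.00245 FPKM. Their sum was 57.4 to 65.2 FPKM in all 3 hypoxia libraries. Usf3 has a single identifier, so the Itgam case is unlike it and does not show how the Usf3 value was formed. Tested genes whose coding transcripts span at least 10-fold in length numbered 1083, a class set after seeing the data. Of these, 3 differed by at least 1 on the log2 scale between ethanolamine and hypoxia, Usf3 included (0.277%, beside 0.695% of all tested genes). Genes with a longest transcript of 10 kb or more numbered 227, and 2 of them (0.881%) differed by at least 1 between ethanolamine and hypoxia. Their median log2 difference was 0.08 in hypoxia against control and -0.13 in ethanolamine against hypoxia, beside -0.09 and 0.01 over all tested genes. With a trend on transcript length and GC removed, the Usf3 differences were 1.77 and -2.51. The part of transcript choice in the Usf3 values was not tested.

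Malat1, an abundant RNA retained in the nucleus, moved in the same direction as Usf3. Its level was 60.2, 86.0 and 72.1 FPKM in control, 176, 245 and 151 FPKM in hypoxia, and 80.5, 67.7 and 92.7 FPKM with ethanolamine. The hypoxia libraries were again the highest 3. Malat1 rose by 1.37 in hypoxia (adjusted p = 0.000258) and fell by 1.23 with ethanolamine (adjusted p = 0.0393, limma), a comparison in which 0 genes were called without hypoxia library 3. Of the 8 nuclear or long non-coding RNAs listed, 6 were tested. Malat1 was called higher and the growth-arrest RNA Gas5, Snhg1 and Snhg12 were called lower in hypoxia (66.7%, beside 59.4% of all tested genes). Malat1 was the 1 called lower with ethanolamine (16.7%, beside 0.568%). Neat1 fell by nearly as much without being called, from 11.8 ± 2.48 FPKM in hypoxia to 4.91 ± 0.553 FPKM with ethanolamine (log2 difference -1.18, adjusted p = 0.0795, limma). The list's summed level was 106 to 142 FPKM in control, 188 to 288 FPKM in hypoxia and 99.6 to 126 FPKM with ethanolamine; Malat1 made up most of it in each group, and Meg3 was at 0. Its part in the Usf3 result was not tested.

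The tested neighbours of the members were Atp6v1a, Naa50 and Arhgap30. None was called between ethanolamine and hypoxia, where 0.568% of all tested genes were called, so the lack of a call says little. For hypoxia against control that share was 59.4%. Next to Usf3, Atp6v1a (a subunit of the vacuolar proton pump) rose in hypoxia by a log2 difference of 0.49 (adjusted p = 3.06e-05) and differed by -0.05 with ethanolamine (adjusted p = 0.710). On the same side, Naa50 (an N-terminal acetyltransferase) fell by 0.81 in hypoxia (adjusted p = 0.000986) and differed by -0.05 with ethanolamine (adjusted p = 0.900, limma). Sidt1, on the other side, was at or under 0.0768 FPKM in all libraries. Beside Usf1, Arhgap30, a GTPase-activating protein, rose by 0.80 in hypoxia (adjusted p = 1.53e-06), and Nectin4 was near 0. Tstd1 overlaps Usf1 by 271 bases on the same strand and reached at most 0.357 FPKM. Opposite Usf2, Gm44662 (1577 shared bases) was at 0 and the antisense gene Gm17077 (979 shared bases) reached 0.411 FPKM; the pseudogene Usf2-ps1 and the hepcidin gene Hamp, a USF target beside Usf2, were at 0. Strandedness of the libraries is not given in the sources used here, so reads of overlapping genes cannot be told apart.

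Sequences upstream of the first annotated start are shown for Usf3 and Usf1, since the study's treatment is low oxygen and the family itself binds CACGTG (RefSeq, GRCm38.p6). The Usf3 stretch is chr16:44173147-44173235 and the Usf1 stretch is chr1:171411063-171411306, both on the plus strand and read 5′ to 3′. Capitals mark the core letters found on either strand, GCGTG for Usf3 and ACGTG, read here from the other strand, for Usf1.
Usf3 upstream: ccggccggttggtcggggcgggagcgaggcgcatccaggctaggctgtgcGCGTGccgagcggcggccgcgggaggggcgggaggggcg
Usf1 upstream: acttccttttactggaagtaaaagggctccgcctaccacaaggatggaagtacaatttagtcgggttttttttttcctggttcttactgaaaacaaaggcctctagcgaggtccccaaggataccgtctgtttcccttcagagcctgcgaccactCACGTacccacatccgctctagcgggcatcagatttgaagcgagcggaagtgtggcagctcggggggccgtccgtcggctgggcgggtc
Both strands were searched over windows from 250 bases before to 50 after each start. Neither gene's windows held CACGTG, which 8.09% of 27025 genes with a window do. A further Usf1 window, at chr1:171411431-171411730 and not shown, held both ACGTG and GCGTG, so GCGTG is not particular to Usf3. GCGTG is in a window of 35.2% of genes and ACGTG, which also lies inside every CACGTG, in 21.8%. The Usf3 stretch is 82.0% G and C. A match is a description of letters only.

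Genes whose levels followed Usf3 most closely over the 9 libraries were named by Pearson's r on the log2 scale, as a likeness with no test. They were Stra6l (0.95), the secreted metalloprotease Adamts1 (0.94), the ubiquitin ligase Cgrrf1 (0.93), Irak4 (0.92), a kinase of Toll-like and interleukin-1 receptor signalling, and the exchange factor Rgl2 (0.92). The zinc-finger gene Prdm10 (0.91), the Golgi protein gene Gorab (0.91) and the predicted gene Gm15694 (0.90) completed the 8. Their log2 differences were much smaller than those of Usf3, 0.17 to 0.53 in hypoxia against control and -1.19 to -0.21 in ethanolamine against hypoxia. Adamts1, for example, went from 15.3 ± 0.451 FPKM in control to 19.8 ± 0.883 FPKM in hypoxia and 13.5 ± 0.522 FPKM with ethanolamine (SD, n = 3). Usf2 was followed most closely by 1110038B12Rik (0.99), the deubiquitinase Usp5 (0.98) and Rilpl2 (0.98), which had their highest means in control. For Usf1 the closest were the deubiquitinase Usp16 (0.88), AC129329.1 (0.88) and the peroxidase Prdx1 (0.87). Prdx1 had means of 205, 212 and 213 FPKM in control, hypoxia and ethanolamine. AC129329.1 was at 0 in control, 3.17 ± 5.49 FPKM in hypoxia and 3.99 ± 6.91 FPKM with ethanolamine (SD, n = 3). Its r therefore rests on few libraries.

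**Figure D3:**
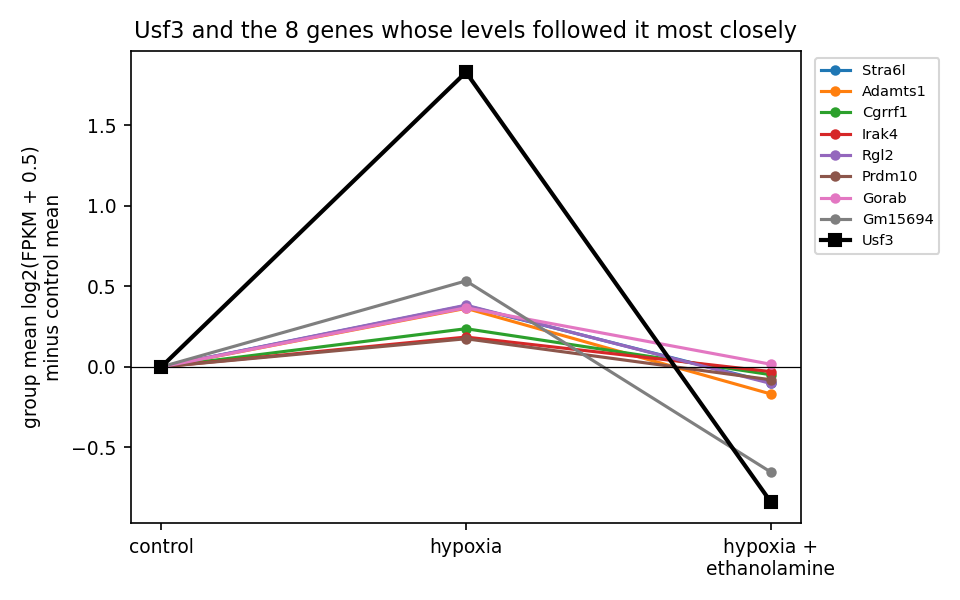
Group means on the log2(FPKM + 0.5) scale minus the control mean (vertical) for Usf3 in black and the 8 genes most like it in colour, in the 3 groups (horizontal); no error is drawn. Usf3 rises to 1.83 and ends at -0.84, while the 8 others peak between 0.17 and 0.53.

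Other bHLH factors that bind E-boxes or related cores were examined as relatives of USF. The list is not limited to factors that bind CACGTG, since it includes hypoxia-inducible factors. Its counts therefore do not describe the genes that share the USF site. Of 36 listed, 26 were tested; 7 were called higher and 5 lower in hypoxia, or 46.2% against 59.4% of all tested genes, with a median log2 difference of 0.04 against -0.09. With a filter of 5 FPKM the count was 7 instead of 12. The largest rises were in repressors. Mxd1, a MAX partner that opposes MYC, went from 2.37 ± 0.234 to 20.2 ± 1.65 FPKM, a log2 difference of 2.85 (SE 0.09, adjusted p = 4.15e-08, limma). Mxi1, of the same MXD group, rose by 1.58, and the clock-linked repressors Bhlhe41 and Bhlhe40 rose by 1.70 and 1.46.

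The largest falls among these factors were in Tfap4 (-1.42), Tcf12 (-1.16), the lysosomal regulator Tfeb (-0.86) and Mxd3 (-0.70). Tfap4, a bHLH-LZ factor like USF, went from 13.1 ± 0.284 to 4.59 ± 0.474 FPKM. Several relatives stood on neither list of calls in hypoxia: Tfe3 (4.86 to 5.49 FPKM), Mitf (6.06 to 6.10 FPKM), the sterol regulators Srebf1 (13.1 to 14.2 FPKM) and Srebf2 (36.9 to 31.5 FPKM), the glucose sensor Mlxip, the dimer partner Max (55.2 to 53.5 FPKM) and Hif1a (42.6 to 40.4 FPKM). None of the 26 was called between ethanolamine and hypoxia by limma, nor in any of the 20 other settings. Only 0.568% of all tested genes were called there, so the lack of a call in 26 genes says little. An unadjusted p under 0.05 was seen in 2 of the 26 (7.69%, beside 14.7% of all tested genes). Myc came closest to the Usf3 shape. Its level was 0.926, 1.15 and 0.785 FPKM in control, 2.26, 1.88 and 1.63 FPKM in hypoxia, and 1.16, 1.11 and 1.19 FPKM with ethanolamine. All hypoxia libraries were the highest; Myc rose by 0.74 in hypoxia (adjusted p = 0.00140), and its difference of -0.54 with ethanolamine had an adjusted p of 0.128. Tfeb differed by 0.33 (adjusted p = 0.283, limma). Against control, 7 factors were called higher and 5 lower with ethanolamine (46.2%, beside 58.5% of all tested genes).

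**Figure D4:**
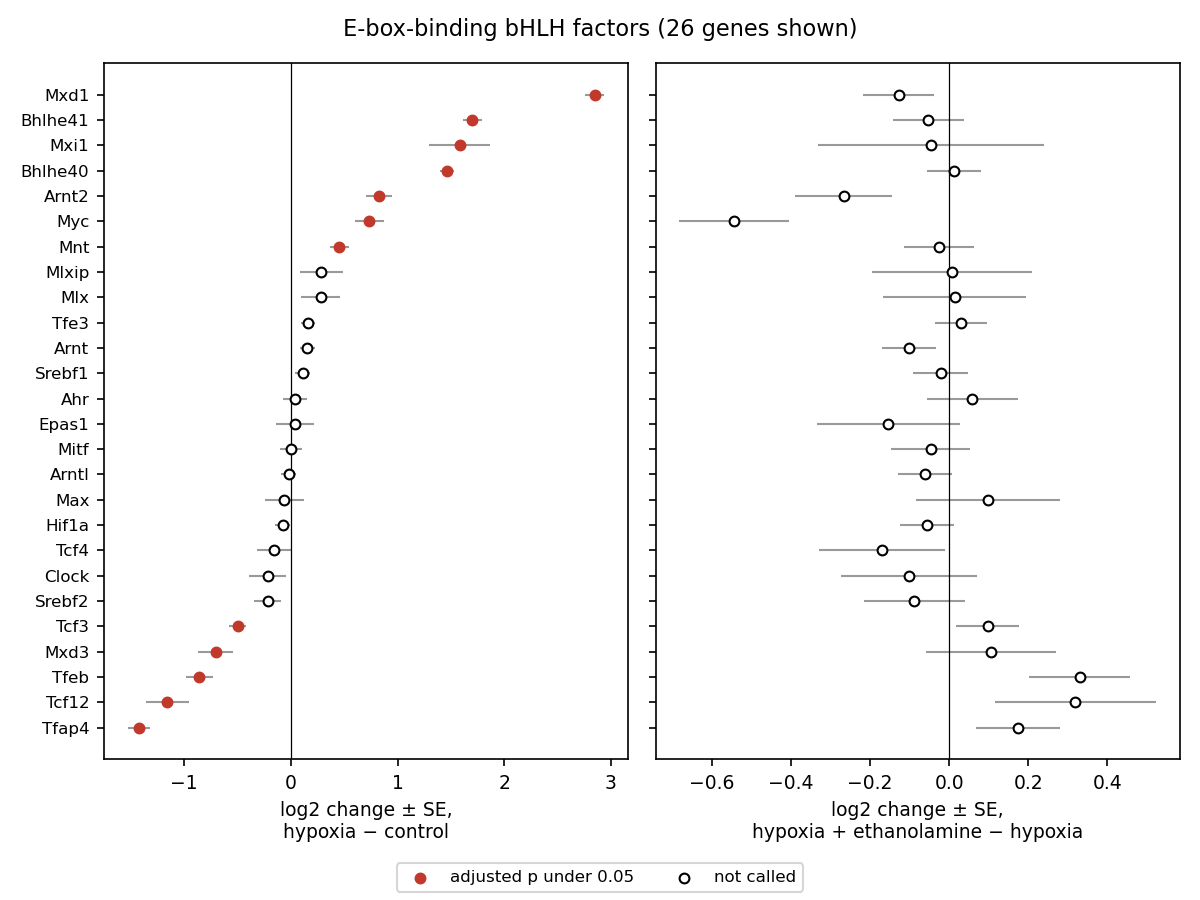
Log2 difference ± SE of the 26 tested E-box-binding bHLH factors for hypoxia against control (left) and ethanolamine against hypoxia (right; a narrower axis), filled red where called. In the left panel 12 are called, from -1.42 for Tfap4 to 2.85 for Mxd1, and in the right panel 0 are called.

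Proteins known to bind, modify or assist USF factors were 32 genes, 31 of them tested. In hypoxia 6 were called higher and 12 lower (58.1%, beside 59.4% of all tested genes), with a median of -0.18. Rises were seen in Ets1 (1.84), a transcription factor that binds DNA beside USF1, the kinases Prkca (0.74) and Gsk3b (0.61), and Jun (0.57). Ets1 went from 0.524 ± 0.0759 to 3.16 ± 0.153 FPKM. Falls were largest in the kinase Cdk1 (-1.71), the Ku subunit Xrcc6 (-1.32), the arginine methyltransferase Prmt1 (-1.17) and Parp1 (-1.06). Xrcc6 and Parp1 belong, with the DNA-dependent kinase Prkdc, to the complex that acts with USF1 at the fatty acid synthase promoter. Prkdc itself went from 5.39 ± 0.605 to 4.29 ± 0.599 FPKM and did not pass (log2 difference -0.30, adjusted p = 0.05001, just above the threshold). Other listed partners were not called in hypoxia either. Among them were Xrcc5 (-0.20, adjusted p = 0.0688), Top2b (-0.06, adjusted p = 0.611) and Ppp1ca (0.04, adjusted p = 0.720). Kat2b and Setd7, listed partners named after their values were seen, went the other way. They were called higher in hypoxia (0.31, adjusted p = 0.00546, and 0.52, adjusted p = 0.000208, limma). Whether the complex changed as a whole was not tested. Gtf2i, the initiator-binding partner TFII-I, fell by 0.22 (adjusted p = 0.0228, limma). Between ethanolamine and hypoxia no partner was called, by limma or in the 20 other settings. Only 0.568% of all tested genes were called there, so the lack of a call in 31 genes says little. An unadjusted p under 0.05 was seen in 8 of 31 (25.8%, beside 14.7% over all tested genes). The largest differences were Fosl1 (-0.32, adjusted p = 0.135) and Sp1 (0.30, adjusted p = 0.297). Against control, 6 were called higher and 10 lower with ethanolamine (51.6%, beside 58.5%).

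Known USF target genes were 40, gathered from liver, pigment cell, immune and cell-cycle work, and 24 were tested. Targets known from liver and other tissues were not all measurable in these cells: Gcgr, Pigr, Slc2a2, Apoa5, Apoc3, Pklr and Hamp were listed at 0 in all groups. Of 21 tested targets with a promoter window, 7 carry the CACGTG letters, beside 998 of all 7945 tested genes with a window. For 6 of those 7 targets, 1 site each is shown as the letters a USF dimer reads (RefSeq, GRCm38.p6, gene strand, 5′ to 3′, E-box in capitals). They are from Apex1 at chr14:50924915-50924940, Fmr1 at chrX:68678520-68678545, Cdk4 at chr10:127063427-127063452, Trp53 at chr11:69580359-69580384, Igf2r at chr17:12769739-12769764 and Abca1 at chr4:53160027-53160052.
Apex1: gctccagaacCACGTGggggcggagc
Fmr1: ctgcgcgggtCACGTGacatcgtttg
Cdk4: agcaacaggtCACGTGgccgtcaggg
Trp53: tttcccctccCACGTGctcaccctgg
Igf2r: acgaggacgtCACGTGagcaggaggc
Abca1: gccatgtctcCACGTGctttctgctg
These 6 genes with the same core went different ways in hypoxia. Apex1, a base excision repair enzyme, went from 105 ± 8.48 to 26.6 ± 0.839 FPKM, and the RNA-binding protein gene Fmr1 from 14.3 ± 1.82 to 6.16 ± 0.412 FPKM. Trp53 fell by 0.57, the cell-cycle kinase gene Cdk4 was not called (-0.10), and the lysosomal sorting receptor gene Igf2r rose by 0.40. Abca1, the cholesterol exporter, went from 0.975 ± 0.167 to 3.97 ± 0.539 FPKM. Lipe, the remaining tested target with these letters, was not called (0.02, adjusted p = 0.873, limma).

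Over the 24 tested targets, 7 were called higher and 10 lower in hypoxia (70.8%, beside 59.4% of all tested genes), with a median of -0.08. Among the rises, Abca1 rose by 1.60, the haem-degrading Hmox1 by 1.54 and the metallothionein Mt1 by 0.92. Hmox1 went from 278 ± 11.3 to 809 ± 60.8 FPKM (adjusted p = 2.25e-07, limma), and it was at 894 ± 7.61 FPKM with ethanolamine. Largest falls were in the mitotic cyclin Ccnb1 (-2.56), Apex1 (-1.95), Cdk1 (-1.71) and Brca2 (-1.31), of which Cdk1 is also in the partner list. Lipogenic targets had unlike values: Acaca, which makes malonyl-CoA, fell by 0.78, Srebf1 was not called (0.11), and Fasn was not called (-0.06, adjusted p = 0.614).

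Fasn, fatty acid synthase and the classic lipogenic USF target, was the 1 target called between ethanolamine and hypoxia (4.17% of 24, beside 0.568% of all tested genes). Its level was 84.0, 71.7 and 71.9 FPKM in control, 70.7, 78.1 and 69.5 FPKM in hypoxia, and 55.5, 46.9 and 46.8 FPKM with ethanolamine. Every ethanolamine library lay below all 6 others, with library 1 the nearest to them. The log2 difference was -0.55 (SE 0.09, adjusted p = 0.0436, limma), and the count of targets called was 0 in 14 of the 20 other settings, among them 8 of the 9 with a library left out. Acaca differed by -0.33 (adjusted p = 0.133), and 4 of 24 targets had an unadjusted p under 0.05 (14.7% over all tested genes). With ethanolamine against control, 7 targets were called higher and 11 lower (75%, beside 58.5%).

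**Figure D5:**
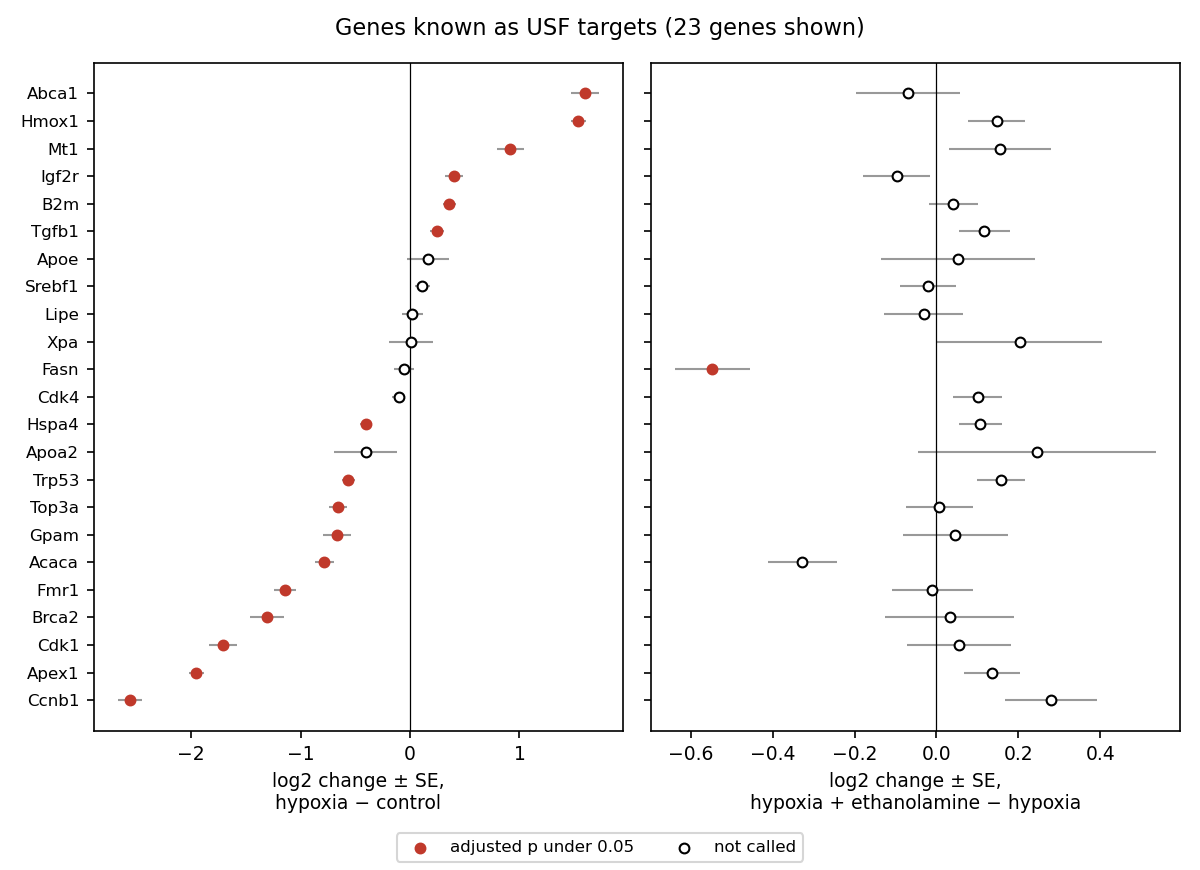
Log2 difference ± SE of 23 of the 24 tested USF target genes for hypoxia against control (left) and ethanolamine against hypoxia (right; a narrower axis), filled red where called. The left panel runs from -2.56 for Ccnb1 to 1.60 for Abca1 with 16 called, and in the right panel Fasn at -0.55 is the 1 called.

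Across the genome, 998 tested genes held CACGTG in a RefSeq window. In hypoxia 227 of them were called higher and 424 lower (65.2%), with a median log2 difference of -0.16. Over all 7945 tested genes with a window, 2060 were called higher and 2957 lower (63.1%), with a median of -0.10. Between ethanolamine and hypoxia 4 CACGTG genes were called (0.401%, beside 0.529% of genes with a window). These 4, named after their values were seen, were the lower Ptgs2, which makes prostaglandins (-0.66), Gramd4 (-0.39) and the ubiquitin ligase Rnf145 (-0.68), and the higher Tbc1d5 (0.43). That count was 0 in 6 of the 20 other settings. With ethanolamine against control, 222 were called higher and 409 lower (63.2%, beside 62.1%).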

How the data were processed

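RNA sequencing covered 9 BV2 libraries, grouped by sample title. The values that the authors deposited were FPKM for each gene in each library. Per the submitters' processing notes the build was GRCm38, also called mm10. The aligner, the quantifier and its gene lengths were not given in the sources used here. Library preparation used a SMARTER mRNA kit, per the labels' protocols. FPKM depends on library total and length, so a class of RNA that takes more of the total lowers the rest. Whole reads could not be recovered.

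Genes that averaged 1 FPKM or more (11802 of 27339 above 0) were fitted as log2(FPKM + 0.5) by limma-trend (limma 3.58.1, R 4.3.3), with 3 group means over all 9 libraries, no covariate, two-sided contrasts and Benjamini-Hochberg adjustment at 0.05. The fit was tested on simulated data. The Usf2 to Usf1 log2 ratio was compared by an exact permutation test, on the same pseudocount. Annotation was GENCODE M21, which held 55154 of 55335 identifiers; promoter windows were RefSeq's. Figures used Python 3.11.15 and matplotlib 3.10.9.

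The members, lists and tests were chosen with earlier results of these data known. Named genes were the members, the 8 (Usf3) or 3 (Usf1, Usf2) genes most correlated with each, the 4 highest and 4 lowest called of each list in hypoxia, those called with ethanolamine or else the 2 largest differences, a fixed set, and 2 neighbours on each side; some genes that this rule names are left out, while list counts include them. Alternatives were other pseudocounts, filters and scalings, a replicate block, a fit to only the groups compared, a fit with no mean-variance trend, a length and GC trend removed, and each library left out.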

Additional observations from a re-analysis of the deposited data

How the results depend on the processing

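Calls between ethanolamine and hypoxia depended on the processing, and the cause was not tested. The 67 genes called became 40 with no filter, 6 with only the groups compared, 116 with length and GC trends removed and 0 to 38 with a library left out. Called CACGTG genes (4) became 1, 0, 9 and 0 to 4 in the same settings. Called targets (1) became 0 at a pseudocount of 0.1, with no filter, with quantile scaling, with only the groups compared and without a mean-variance trend, and were 0 to 1 with a library left out. The higher share of called genes was 20.9%, and 5.63% after rescaling without mitochondrial and ribosomal RNA. With a filter of 5 FPKM, which tests fewer genes, called E-box factors in hypoxia (12) were 7, and genes called were 4671 instead of 7011 for hypoxia and 4603 instead of 6905 for ethanolamine, each against control.

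For Usf3, ethanolamine against hypoxia was -3.51 and -2.13 at pseudocounts of 0.1 and 1, and ethanolamine against control was -1.33 at 0.1; the filter of 5 FPKM dropped the gene. Usf2 between ethanolamine and hypoxia turned to -0.036 on rescaling and -0.026 with length and GC trends removed, and ranged from -0.031 to 0.046 with a library left out. Usf1 ranged from -0.249 to 0.0105 for ethanolamine against hypoxia and from -0.0597 to 0.1996 against control with a library left out. All other results kept their direction and call, counts staying within 1.5 times. Median-of-ratios scaling moved the median of all genes by at most 0.09; higher genes then made up 49.2% of those called in hypoxia (41.6% without it) and 49.3% with ethanolamine against control (41.1%).

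Same-numbered libraries did not deviate together (correlations of -0.117 to 0.109 over 9 pairs, 1 of them over 0.1), so numbers were not taken as pairs. With the replicate number as a block, 0 genes, 0 targets and 0 CACGTG genes were called between ethanolamine and hypoxia, and the Usf2 calls stood.

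Low values limit Usf3. Its ethanolamine libraries 1 and 3 (0.249 and 0.211 FPKM) lay under the 0.5 FPKM pseudocount. Ethanolamine library 2 (0.774 FPKM) and the controls (0.721 to 1.84 FPKM) lay above it.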
